A study of Homo sapiens with 6 samples.

Results

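The 37 genes described here encode proteins that sense or repair DNA damage. They were listed by name and are 37 of the 34917 genes in a table made by summing transcript estimates per gene. Double-strand breaks are repaired either by homologous recombination, in which BRCA2 acts with PALB2, BRCA1 and the genes RAD51B, RAD51C, RAD51D, XRCC2 and XRCC3 to copy the sister strand, or by end joining, in which Ku binds the ends and recruits the kinase DNA-PKcs and DNA ligase IV. The Fanconi anaemia pathway clears crosslinks between the DNA strands: its core complex attaches ubiquitin to FANCD2 and FANCI, and downstream proteins, several of them recombination factors, complete the repair. ATM and ATR are kinases that signal damage through CHEK2 and CHEK1, and mismatch, nucleotide excision and single-strand break repair handle other lesions.

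The cells were THP-1, an established human acute monocytic leukaemia line that grows in suspension, obtained from the cell banks ATCC and DSMZ, with 3 libraries of poly(A) RNA from each. Both groups were untreated, with no introduced allele named in the labels, and were cultured in parallel in RPMI with 20% fetal bovine serum at 37 °C and 5% CO2. Cultures were started at 0.2 M cells per ml, split after 48 h, and collected 24 h later in logarithmic growth at 0.5 M cells per ml. The expansions of a bank were independent per the labels, so p-values rest on the spread between expansions. Bank and the particular stock it supplied cannot be told apart, and nothing in the labels says whether either stock is a single clone.

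Library totals were 23413428 to 37119721 estimated counts, and each of the 37 genes had between 119 and 57472 estimated counts in every library. Levels below are in CPM, counts scaled to the library size with TMM, listed in the order of replicates 1, 2 and 3. Fold changes are DSMZ minus ATCC on the log2 scale, with the standard error (SE) of edgeR's quasi-likelihood fit. P-values were adjusted by Benjamini-Hochberg over the 14571 genes tested, with a threshold of 0.05. The 9 monocytic marker genes summed to 741 to 1119 CPM in ATCC and 866.0 to 993 in DSMZ, although CD14 itself was low. Of these 9, 4 (44.4%) were higher in ATCC and 2 (22.2%) in DSMZ, beside 25.7 and 24.1% of all genes. Leaving out ATCC replicate 2 gave 4 and 3, beside 32.3 and 31.8%. MPO averaged 10.9 CPM in ATCC and 90.4 in DSMZ, while CD33 averaged 61.3 and 24.7. CD3E and MS4A1, which define T and B cells, were at 0 in every library. Summed T cell, erythroid, epithelial and fibroblast markers stayed under 1 CPM in each library, and B cell markers reached 1.11 to 1.44 CPM in ATCC and 1.97 to 2.34 in DSMZ. The B cell marker CD79A averaged 0.290 CPM in ATCC and 1.29 in DSMZ and was called (log2 fold change 2.13). ATCC replicate 2 stood apart: genes of low GC content read low in it, so each result is given with and without that library where the call changes.

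All 37 genes passed the filter on low counts. In the fit to all 6 libraries, 9 were higher in DSMZ, 5 were higher in ATCC and 23 did not pass the test, so that 37.8% were called. Over all genes tested 49.8% were called, 24.1% higher in DSMZ and 25.7% higher in ATCC, so the share among the repair genes lay below the background. Their median log2 fold change was 0.12, beside 0.01 for all genes. The 9 genes higher in DSMZ were BRCA2, BRIP1, BARD1, RAD51C, FANCE, FANCG, FANCD2, FANCI and CHEK1, and the 5 higher in ATCC were FANCF, FANCC, PRKDC, ERCC2 and PARP1. Of all 37 genes, 3 were both called and at least 2-fold different (BRCA2, BRIP1 and FANCE). Over all genes tested, 21.3% were, so this share too lay below the background. The libraries of the banks did not overlap for 22 of the 37 genes, 15 with DSMZ above and 7 with ATCC above. Over all genes 62.3% did not overlap, 31.6% with DSMZ above and 30.7% with ATCC above. In bulk RNA, fewer cells expressing a gene and less RNA per cell cannot be told apart.

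Without ATCC replicate 2, 15 of the 37 were higher in DSMZ and 9 higher in ATCC, or 64.9%. Over all genes 64.0% were then called, 31.8% higher in DSMZ and 32.3% higher in ATCC. All 14 genes called in the fit to 6 libraries were called in the same direction again. The 10 added were BRCA1, RAD51D, ATR, CHEK2, XRCC5 and LIG4 on the DSMZ side and FANCB, FANCL, MRE11 and NBN on the ATCC side. Without DSMZ replicate 3, 5 of the 37 were higher in DSMZ and 4 in ATCC. Over all genes 38.2% were called in that fit, 18.1% higher in DSMZ and 20.0% higher in ATCC. The median SE of the 37 fold changes was 0.14 with all libraries and 0.081 without ATCC replicate 2.

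**Figure D1:**
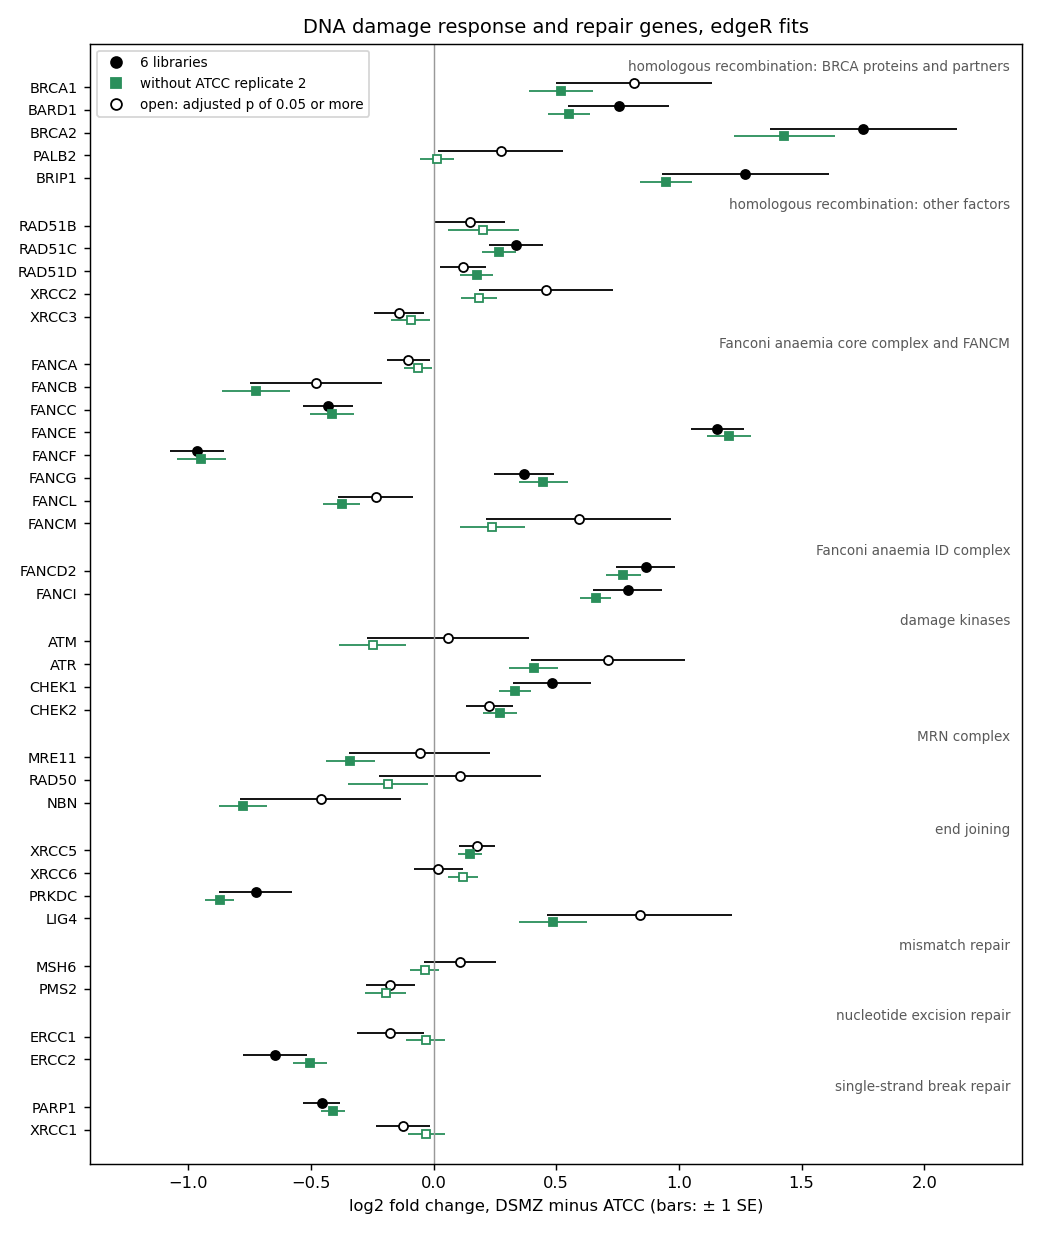
Log2 fold change (DSMZ minus ATCC, x axis) of each of the 37 genes, grouped by role, with bars of 1 SE from edgeR. Black circles are the fit to 6 libraries and green squares the fit without ATCC replicate 2, and open symbols have an adjusted p of 0.05 or more. BRCA2, BRIP1 and FANCE lie farthest to the right in the fit to 6 libraries and FANCF farthest to the left, and the bars are shorter for most genes without ATCC replicate 2.

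In homologous recombination, the genes for BRCA2 and 2 of the BRCA1 partners were higher in DSMZ. BRCA2, a mediator of strand exchange (ENSG00000139618; GRCh38 chr13:32315474-32400266), read 38.1, 12.3 and 26.9 CPM in ATCC and 65.4, 88.7 and 106 CPM in DSMZ. The lowest DSMZ library was above the highest ATCC library, and both banks varied between replicates. The means were 25.7 ± 12.9 and 86.7 ± 20.4 CPM (SD, n = 3), and the log2 fold change was 1.75 (SE 0.38, adjusted p 0.00684), or 3.37-fold. Without ATCC replicate 2 it was 1.43 (SE 0.21, adjusted p 0.000325). BRIP1, a helicase that binds BRCA1 and is also known as FANCJ (chr17:61681266-61863521), read 41.2, 13.9 and 31.9 CPM in ATCC and 66.4, 70.4 and 73.1 CPM in DSMZ. The DSMZ libraries lay close together and above all ATCC libraries, of which replicate 2 was lowest. The log2 fold change of BRIP1 was 1.27 (SE 0.34, adjusted p 0.0165) and without ATCC replicate 2 it was 0.95 (adjusted p 6.5e-05).

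BARD1, the obligate RING-domain partner of BRCA1 (chr2:214725646-214809711), read 56.0, 30.9 and 48.7 CPM in ATCC and 70.5, 81.0 and 77.3 CPM in DSMZ, again without overlap. Its log2 fold change was 0.75 (SE 0.21, adjusted p 0.0185) with all libraries and 0.55 (adjusted p 0.000493) without ATCC replicate 2. BRCA1 itself (chr17:43044295-43170245) read 191, 68.0 and 130.5 CPM in ATCC and 236, 223 and 227 CPM in DSMZ. Its libraries did not overlap, but the ATCC values spread widely, and the log2 fold change of 0.82 (SE 0.32) did not pass the test (adjusted p 0.0662). Without ATCC replicate 2 BRCA1 passed, at 0.52 (SE 0.13, adjusted p 0.00762). PALB2, which bridges BRCA1 and BRCA2, read 40.8, 19.3 and 37.9 CPM in ATCC and 40.8, 38.4 and 39.4 CPM in DSMZ. Its libraries overlapped, with ATCC replicate 2 alone far below the rest, and the log2 fold change was 0.27 (adjusted p 0.404), or 0.01 without that library. The transcripts of these 5 genes had a GC content of 36.3 to 42.7%, and ATCC replicate 2 read 37.8 to 59.0% of the mean of the other ATCC libraries for them.

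Of the 5 genes RAD51B, RAD51C, RAD51D, XRCC2 and XRCC3, whose products assist strand exchange, only RAD51C passed the test in the fit to 6 libraries. RAD51C (chr17:58692573-58735611) read 38.5, 33.8 and 41.7 CPM in ATCC and 48.0, 47.0 and 48.8 CPM in DSMZ, with a log2 fold change of 0.34 (SE 0.11, adjusted p 0.035). The gap was small beside that of BRCA2, and the call was lost in 12 of 18 other settings. XRCC2 read 58.4, 25.3 and 51.1 CPM in ATCC and 59.8, 63.6 and 61.7 CPM in DSMZ and did not pass (log2 fold change 0.46, adjusted p 0.201). RAD51D, at 0.12 with all libraries (adjusted p 0.331), passed without ATCC replicate 2 at 0.18 (adjusted p 0.043). RAD51B and XRCC3 had log2 fold changes of 0.15 and -0.14 (adjusted p 0.426 and 0.291), and their libraries overlapped.

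The Fanconi anaemia genes were called in both directions, as were genes over the whole table. The genes for the FANCD2 and FANCI pair, the substrate of the core complex that is clamped onto DNA, were both higher in DSMZ. FANCD2 (chr3:10026414-10101930) read 119.6, 89.5 and 104 CPM in ATCC and 185, 197 and 188 CPM in DSMZ. Its means were 104.5 ± 15.1 and 190.1 ± 6.44 CPM (SD, n = 3), with a log2 fold change of 0.86 (SE 0.12, adjusted p 0.000812). FANCI (chr15:89243949-89317261) read 173, 118 and 155 CPM in ATCC and 253, 266 and 253 CPM in DSMZ, with a log2 fold change of 0.79 (SE 0.14, adjusted p 0.00265). Neither gene overlapped between the banks, and without ATCC replicate 2 the values were 0.77 and 0.66. FANCI shares 12060 bases with POLG on the opposite strand, and whether the quantification used strand is not stated in the labels or files.

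In the core complex and its anchor FANCM, 2 genes were higher in DSMZ, 2 were higher in ATCC and 4 did not pass. These are 25% in each direction, near the 24.1 and 25.7% of all genes. FANCE, the subunit that contacts FANCD2 (ENSG00000112039; chr6:35452356-35467103), read 26.2, 26.9 and 23.8 CPM in ATCC and 55.7, 53.5 and 62.2 CPM in DSMZ. Replicates of a bank lay close together, ATCC replicate 2 included, and the log2 fold change was 1.16 (SE 0.11, adjusted p 0.00014), or 2.23-fold. FANCF, an adaptor that holds the complex together (ENSG00000183161; chr11:22622890-22625841), moved the other way, with 19.5, 19.3 and 18.4 CPM in ATCC and 9.55, 10.7 and 9.12 CPM in DSMZ. Every ATCC library was well above every DSMZ library, and the log2 fold change was -0.96 (SE 0.11, adjusted p 0.000326), a 1.95-fold difference. FANCC, which pairs with FANCE and FANCF in the complex (chr9:95099054-95426796), was also higher in ATCC, at 23.7, 24.2 and 23.7 CPM against 18.7, 18.2 and 16.2 CPM in DSMZ. Its log2 fold change was -0.43 (SE 0.10, adjusted p 0.0103). FANCG read 29.2, 36.8 and 34.7 CPM in ATCC and 44.5, 45.8 and 39.8 CPM in DSMZ, and its log2 fold change of 0.37 (SE 0.12, adjusted p 0.0377) was lost in 13 of 18 other settings.

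Of the other core genes, FANCL, the ubiquitin ligase of the complex, read 30.2, 20.7 and 28.2 CPM in ATCC and 22.6, 23.01 and 21.5 CPM in DSMZ. Its ATCC replicates 1 and 3 were above and replicate 2 below every DSMZ library. The log2 fold change was -0.24 (adjusted p 0.231), and -0.38 (adjusted p 0.00221) without ATCC replicate 2. FANCB, an X-linked subunit, had the same arrangement, with 14.2, 6.32 and 10.7 CPM in ATCC and 6.90, 7.97 and 7.56 CPM in DSMZ. It went from -0.48 (adjusted p 0.177) to -0.73 (adjusted p 0.00169) when that library was left out. FANCM, the translocase that anchors the complex on DNA, read 17.9, 5.11 and 12.9 CPM in ATCC and 17.5, 17.7 and 18.9 CPM in DSMZ, and passed in neither fit (adjusted p 0.229 and 0.142). FANCA had a log2 fold change of -0.10 (adjusted p 0.358), with every ATCC library slightly above DSMZ.

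**Figure D2:**
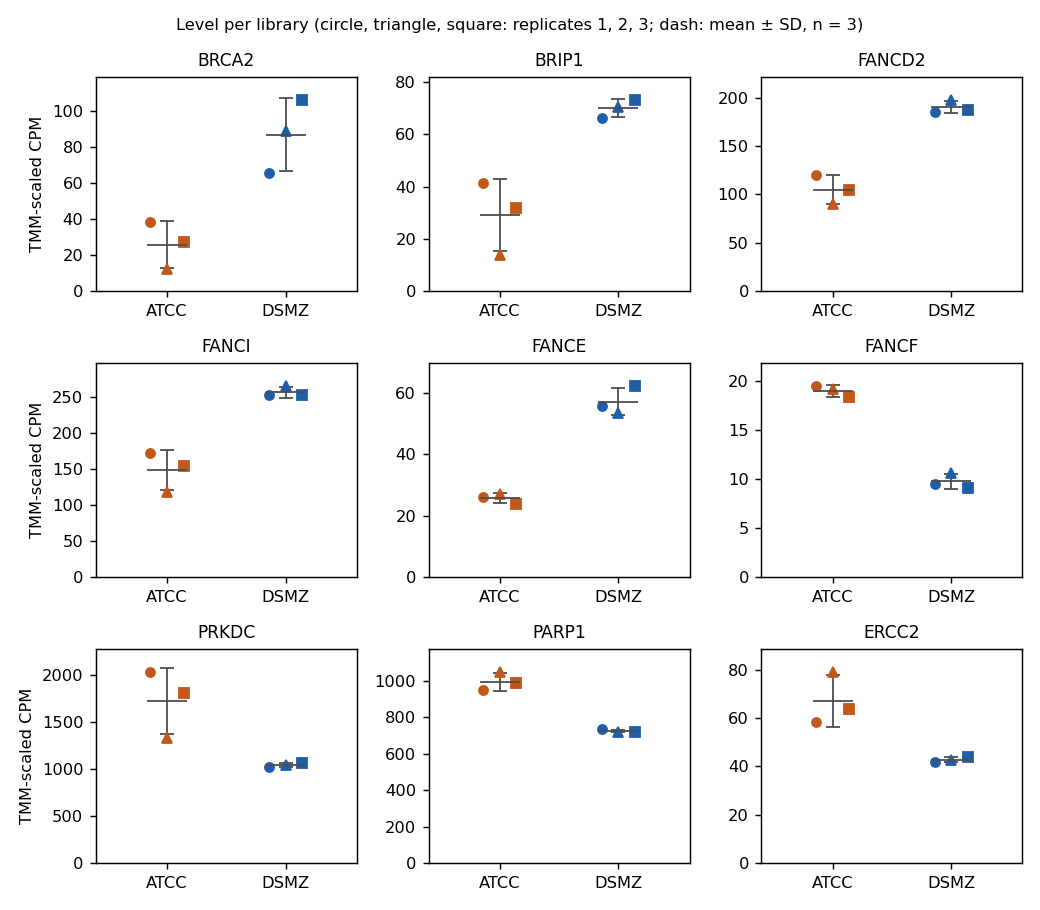
TMM-scaled CPM (y axis, from 0) in each library of ATCC (orange) and DSMZ (blue) for the 9 genes called in the fit to 6 libraries and in all 18 other settings. Circles, triangles and squares are replicates 1, 2 and 3, and the dash and bar are the mean ± SD (n = 3). No gene shown has overlapping libraries, and the ATCC triangle is lowest for BRCA2, BRIP1, FANCD2, FANCI and PRKDC but not for FANCE, FANCF, PARP1 and ERCC2.

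The promoters of the 4 genes with the largest fold changes among those called are printed. Each is the 250 bases before the RefSeq transcription start (GRCh38.p14), 5′ to 3′ on the gene's own strand. Capitals mark matches, on either strand, to any of the searched words. The CCAAT box was searched as its letters CCAAT, while the letters for the cell cycle homology region (CHR) were TTTGAA. For the E-box the letters were CACGTG, whereas for the GC box they were GGGCGG. E2F-type words were TTTGGCGC, also TTTCCCGC, further TTTCGCGC, besides TTTGCCGC.
BRCA2, higher in DSMZ, chr13:32315258-32315507, plus strand: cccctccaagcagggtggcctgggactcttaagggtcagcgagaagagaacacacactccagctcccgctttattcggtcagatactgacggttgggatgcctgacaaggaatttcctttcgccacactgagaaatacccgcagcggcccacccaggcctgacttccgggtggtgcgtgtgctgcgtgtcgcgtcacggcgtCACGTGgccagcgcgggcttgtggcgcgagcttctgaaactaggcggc
BRIP1, higher in DSMZ, chr17:61863529-61863778, minus strand: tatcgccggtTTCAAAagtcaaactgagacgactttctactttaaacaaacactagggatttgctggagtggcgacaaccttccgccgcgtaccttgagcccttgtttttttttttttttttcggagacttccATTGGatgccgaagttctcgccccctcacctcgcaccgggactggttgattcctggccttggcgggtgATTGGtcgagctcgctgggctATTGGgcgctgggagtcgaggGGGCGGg
FANCE, higher in DSMZ, chr6:35452088-35452337, plus strand: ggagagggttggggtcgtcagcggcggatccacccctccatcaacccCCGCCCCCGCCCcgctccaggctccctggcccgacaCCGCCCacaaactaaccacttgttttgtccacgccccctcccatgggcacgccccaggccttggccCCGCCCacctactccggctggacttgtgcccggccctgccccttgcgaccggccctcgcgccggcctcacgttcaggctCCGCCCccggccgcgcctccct
FANCF, higher in ATCC, chr11:22625824-22626073, minus strand: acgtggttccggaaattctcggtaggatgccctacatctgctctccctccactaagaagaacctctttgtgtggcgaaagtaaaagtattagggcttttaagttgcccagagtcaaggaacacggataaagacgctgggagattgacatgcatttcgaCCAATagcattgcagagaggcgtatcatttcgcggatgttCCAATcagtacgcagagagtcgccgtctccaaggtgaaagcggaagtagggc
The BRCA2 window held 1 E-box, 48 to 43 bases before the start, the BRIP1 window 3 CCAAT boxes in reverse orientation with a CHR and a GC box, the FANCE window 5 GC boxes and the FANCF window 2 CCAAT boxes. RefSeq promoters were matched for 33 of the 37 genes, without FANCI, NBN, XRCC5 and PRKDC. Over 27305 promoters of this length, a CCAAT box was present in 33.0% (15 of the 33 repair genes, 45.5%), a GC box in 42.3% (22 of 33, 66.7%) and a CHR in 13.6% (4 of 33, 12.1%). An E-box was present in 6.49% (1 of 33, 3.03%) and an E2F-type word in 2.79% (3 of 33, 9.09%: PMS2, FANCC and FANCA). A CCAAT box was found in 2 of the 8 matched genes higher in DSMZ and 2 of the 4 higher in ATCC, and a GC box in 5 and 3. A match describes letters in this window and not a bound site. The searched words were chosen after the fold changes were known, the E-box after the BRCA2 window was read.

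Among the damage kinases, CHEK1 passed in the fit to 6 libraries. CHEK1, the effector of ATR (chr11:125625136-125676255), read 87.3, 58.0 and 82.4 CPM in ATCC and 109, 109.6 and 99.6 CPM in DSMZ. The banks did not overlap, and the log2 fold change was 0.48 (SE 0.16, adjusted p 0.0362). ATR, the kinase of stalled replication forks, read 57.5, 21.0 and 44.1 CPM in ATCC and 68.1, 67.2 and 65.6 CPM in DSMZ. Its log2 fold change of 0.71 (SE 0.31, adjusted p 0.0964) did not pass, although no library overlapped, and without ATCC replicate 2 it was 0.41 (adjusted p 0.00698). CHEK2, the effector of ATM, differed by less, at 40.3, 42.1 and 38.2 CPM in ATCC and 48.9, 47.1 and 45.3 CPM in DSMZ. It passed without ATCC replicate 2 (log2 fold change 0.27, adjusted p 0.00773, against 0.23 and 0.0816 with it). ATM, the kinase of double-strand breaks, spread from 50.8 to 149 CPM within ATCC, which enclosed all of its DSMZ values of 97.7, 105 and 112 CPM. The log2 fold change of ATM was 0.06 (adjusted p 0.896), and -0.25 (adjusted p 0.142) without ATCC replicate 2.

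MRE11, RAD50 and NBN form the MRN complex, which binds broken ends and activates ATM, and none of the 3 passed in the fit to 6 libraries. NBN, on chromosome 8, read 127, 44.4 and 98.9 CPM in ATCC and 67.6, 64.3 and 64.9 CPM in DSMZ. ATCC replicates 1 and 3 were above and replicate 2 below the DSMZ libraries, and the log2 fold change was -0.46 (SE 0.33, adjusted p 0.28). Without ATCC replicate 2 it was -0.78 (SE 0.10, adjusted p 0.000128), with ATCC higher. NBN shares 1824 bases with DECR1 on the opposite strand, which averaged 76.8 CPM in ATCC and 33.8 CPM in DSMZ. MRE11, the nuclease of the complex, read 83.7, 33.5 and 64.7 CPM in ATCC and 60.8, 57.8 and 56.3 CPM in DSMZ, and passed without ATCC replicate 2 (-0.34, adjusted p 0.016). RAD50, the structural subunit, read 73.5, 25.5 and 45.9 CPM in ATCC and 50.1, 49.8 and 56.2 CPM in DSMZ and passed in neither fit (0.11, adjusted p 0.805; -0.19, adjusted p 0.348). With protein-coding transcripts only, the RAD50 log2 fold change was 1.00 (SE 0.47, adjusted p 0.117), which did not pass either. RAD50 shares 90060 bases of its span with AC116366.3, a protein-coding gene on the same strand. That gene averaged 16.6 CPM in ATCC and 13.8 CPM in DSMZ, so the RAD50 value and its transcript shares are uncertain.

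In end joining, only PRKDC passed the test in the fit to 6 libraries. PRKDC, which encodes DNA-PKcs (ENSG00000253729; chr8:47773108-47960183), read 2029.6, 1333 and 1803 CPM in ATCC and 1018, 1045 and 1061 CPM in DSMZ. Every ATCC library was above every DSMZ library even though ATCC replicate 2 read low. The means were 1722 ± 355 and 1041 ± 21.9 CPM (SD, n = 3) and the log2 fold change was -0.73 (SE 0.15, adjusted p 0.00492), or -0.87 (adjusted p 3.73e-06) without ATCC replicate 2. XRCC5, which encodes Ku80, read 781, 725 and 787 CPM in ATCC and 864, 876 and 853 CPM in DSMZ. Its log2 fold change was 0.18 (adjusted p 0.084) with all libraries and 0.15 (adjusted p 0.0237) without ATCC replicate 2. XRCC6, which encodes Ku70, had overlapping libraries between 608 and 765 CPM and a log2 fold change of 0.02 (adjusted p 0.893). LIG4, the ligase of the last step, read 16.0, 4.50 and 11.3 CPM in ATCC and 18.4, 20.1 and 18.5 CPM in DSMZ. It did not overlap and passed without ATCC replicate 2, at 0.49 (adjusted p 0.0128) against 0.84 (SE 0.38, adjusted p 0.101) with it.

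In the excision, single-strand break and mismatch pathways, 2 of 6 genes passed the test, both higher in ATCC. ERCC2, the XPD helicase of transcription factor TFIIH (chr19:45349837-45370918), read 58.3, 79.0 and 63.8 CPM in ATCC and 41.8, 42.8 and 43.7 CPM in DSMZ. Replicate 2 was here the highest ATCC library, and the log2 fold change was -0.65 (SE 0.13, adjusted p 0.00461), with -0.50 without that library (adjusted p 0.000234). PARP1, which marks strand breaks with poly(ADP-ribose) (chr1:226360691-226408079), read 950.1, 1049 and 987 CPM in ATCC and 734, 721 and 721 CPM in DSMZ. The libraries were separate and close within each bank, with a log2 fold change of -0.46 (SE 0.075, adjusted p 0.00187). XRCC1, the scaffold that PARP1 recruits, and ERCC1, the partner of the XPF nuclease, overlapped between the banks (log2 fold changes of -0.12 and -0.18, adjusted p 0.385 and 0.317). MSH6, a subunit of a mismatch-binding complex, read 177, 119 and 164 CPM in ATCC and 170.5, 166 and 159 CPM in DSMZ and did not pass (0.11, adjusted p 0.575). PMS2, a mismatch repair endonuclease, was at -0.18 (adjusted p 0.179). PMS2 has transcribed near-copies, PMS2CL at 15.9 CPM in ATCC and 19.9 CPM in DSMZ among them, so its own value is uncertain.

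ATCC replicate 2 was the lowest ATCC library for 23 of the 37 genes and read under 50% of the mean of the other ATCC libraries for 12 of them. The extremes were LIG4, at 33.1% of that mean, and ERCC1, at 129.8%. The 11 genes with transcripts under 40% GC all had their lowest ATCC value in replicate 2. Across the 37 genes, the log2 deviation of replicate 2 from the mean of replicates 1 and 3 followed GC content with Pearson's r of 0.82 and Spearman's rho of 0.90, a description over genes that share the same libraries. All tested genes showed a like trend, with a median deviation of -0.89 in the 10% of genes with the lowest GC content and 0.33 in the 10% with the highest. The log2 fold changes had an r of -0.31 with GC content in the fit to 6 libraries and -0.08 without ATCC replicate 2. After a correction of each library for GC content, 13 of the 37 genes were higher in DSMZ and 8 higher in ATCC, while over all genes 64.5% were called, 31.8% higher in DSMZ and 32.7% higher in ATCC. With that correction and without ATCC replicate 2, the counts were 17 and 9, beside 66.3% of all genes, 33.0% and 33.4% by direction. With the correction and all 6 libraries, BRCA1 passed at 0.78 (adjusted p 0.00867) and BRCA2 stood at 1.54 (adjusted p 8.18e-05).

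**Figure D3:**
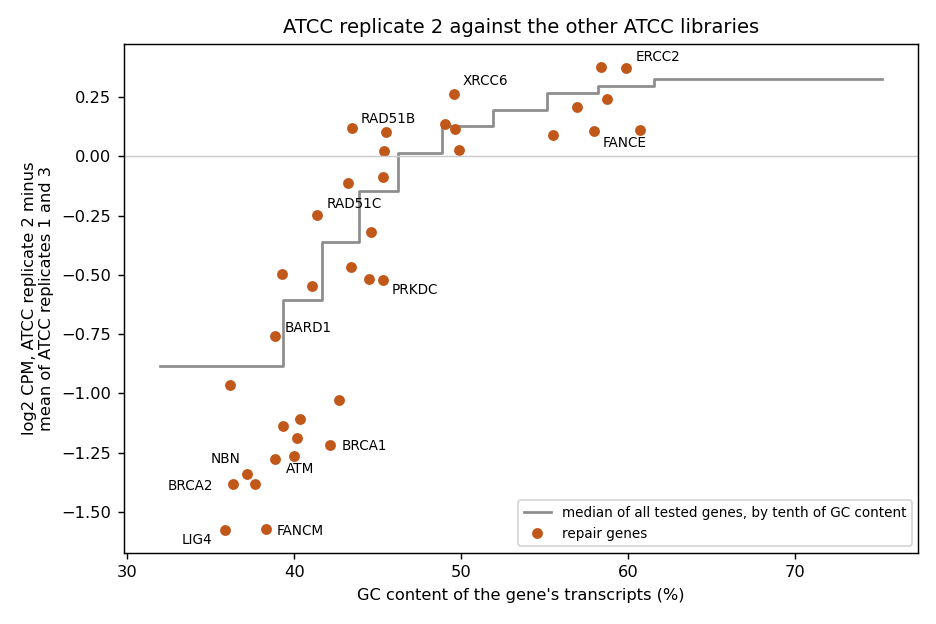
Log2 CPM of ATCC replicate 2 minus the mean of ATCC replicates 1 and 3 (y axis) against the GC content of the gene's transcripts (x axis, %) for the 37 repair genes (points), with the median of all tested genes in each of 10 equal GC classes (grey line). Points lie above 0 for the GC-rich ERCC2 and FANCE and lowest for LIG4 and FANCM.

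Several genes had fold changes close to those of their chromosomal neighbours, and others did not. For each gene, the median log2 fold change of the other protein-coding genes tested within 5 Mb on either side was taken, from 12 genes around PRKDC to 225 around ERCC2. Across the 37 genes, r was 0.65 and rho 0.67 between a gene's fold change and this median, a description over genes measured in the same libraries. The signs were the same for 26 of 37 genes and for 11 of the 14 called. The same values were not taken over all genes, so they do not set the repair genes apart from others. PRKDC (-0.73) lay beside a median of -0.71, PARP1 (-0.46) beside -0.46 and FANCC (-0.43) beside -0.41. NBN and FANCB had the lowest neighbour medians, -1.03 and -0.85. BRCA2 (1.75) lay beside 0.35, BRIP1 (1.27) beside 0.48 and FANCE (1.16) beside 0.19, so these 3 exceeded their neighbour medians by 1.40, 0.79 and 0.97. Without ATCC replicate 2, BRCA2 (1.43) lay beside 0.23, BRIP1 (0.95) beside 0.36 and FANCE (1.20) beside 0.28. The genes FANCI, FANCG and CHEK1 were higher in DSMZ with neighbour medians of -0.10, -0.40 and -0.36. Without ATCC replicate 2 these medians were 0.0057, -0.38 and -0.39, so the sign for FANCI depended on that library. FANCF (-0.96) and ERCC2 (-0.65) were lower than their neighbour medians of -0.28 and -0.03. FANCF lay below the lower quartile of its neighbours (-0.68), but ERCC2 lay just above that of its own (-0.66). DNA copy number was not measured, and its part in these values was not tested.

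**Figure D4:**
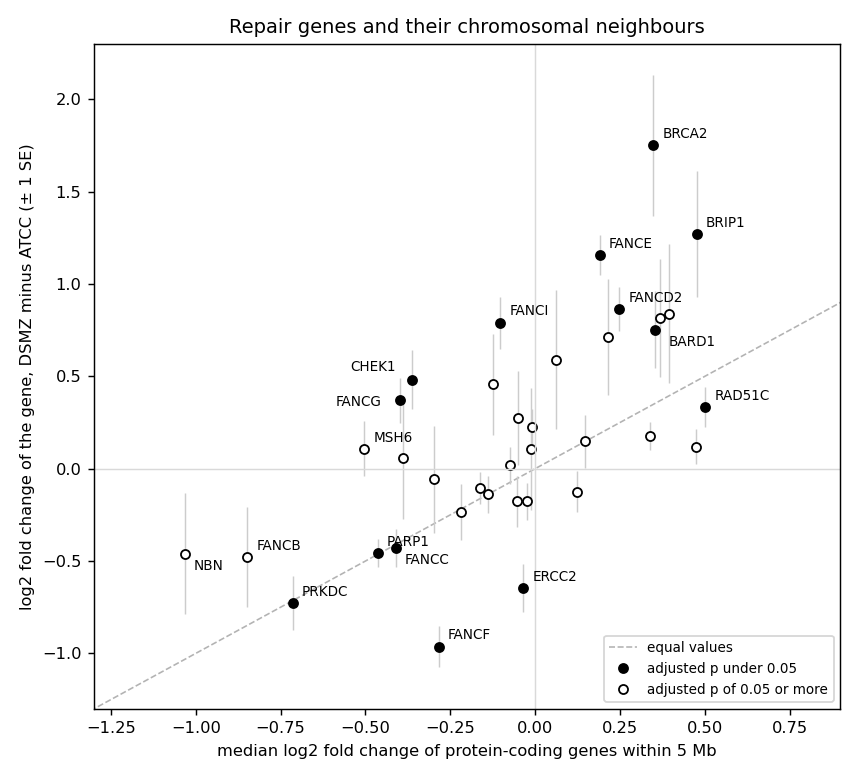
Log2 fold change of each of the 37 genes (y axis, DSMZ minus ATCC, bars of 1 SE) against the median log2 fold change of protein-coding genes within 5 Mb (x axis). Filled points have an adjusted p under 0.05, and the dashed line marks equal values. PRKDC, PARP1 and FANCC lie on or near the line, BRCA2, BRIP1, FANCE and FANCI well above it and FANCF and ERCC2 below it.

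Levels were compared between genes in TPM, which takes account of transcript length. Averaged over the 6 libraries, the highest were the Ku genes XRCC5 and XRCC6 at 495 and 389.9 TPM, then PARP1 at 290 and PRKDC at 153 TPM. RAD51C, ERCC1 and FANCI followed at 98.8, 98.5 and 97.3 TPM. These values sum all transcripts of a gene, short noncoding ones included. Protein-coding transcripts held 28.74 to 45.64% of RAD51C TPM over the libraries, and 83.05 to 92.12% of FANCI TPM. The lowest were BRCA2 at 8.62, LIG4 at 4.40, FANCF at 4.10 and FANCM at 3.99 TPM. Transcript shares are kallisto estimates and were described without a test. The main protein-coding transcript held 43.5 to 70.6% of BRCA2 TPM over the 6 libraries, and FANCE and FANCF each had a single transcript. Most RAD50 TPM, 52.6 to 65.6%, was assigned to a transcript annotated for nonsense-mediated decay. A noncoding transcript held 61.6 to 73.6% of XRCC2 TPM and an intron-retaining transcript 57.8 to 74.6% of FANCB TPM. For LIG4 the assignment differed: 1 of its 5 transcripts, protein-coding, held 64.1, 58.5 and 33.5% in the DSMZ libraries and under 1% in each ATCC library. The LIG4 shares also varied within a bank. Another protein-coding transcript held 48.4, under 1 and 59.4% in ATCC replicates 1, 2 and 3. LIG4 had as few as 119 estimated counts in a library, so a difference in transcript use between the banks is uncertain.

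Among 99 other repair genes, 34 were higher in DSMZ and 17 higher in ATCC, with a median log2 fold change of 0.19, and without ATCC replicate 2 the counts were 48 and 29. These are 34.3 and 17.2% of the list, beside 24.1 and 25.7% of all genes, and 48.5 and 29.3%, beside 31.8 and 32.3%, without that library. POLQ, the polymerase of microhomology-mediated end joining, averaged 74.8 ± 33.9 CPM in ATCC and 269 ± 8.79 CPM in DSMZ (SD, n = 3), with a log2 fold change of 1.85 (SE 0.32, adjusted p 0.00251). DMC1, which acts in meiotic recombination, RIF1, which limits end resection, and ABRAXAS1, of the BRCA1-A complex, were also higher in DSMZ, at 1.78, 1.33 and 1.33. Among the genes higher in ATCC were NEIL2, a base excision glycosylase, at -2.94, PAXX, an end-joining factor, at -1.56, and RAD54B at -1.33.

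Of 26 genes known as p53 targets, 8 (30.8%) were higher in DSMZ and 6 (23.1%) in ATCC, with a median of 0.13, beside 24.1 and 25.7% of all genes. CDKN1A, the inhibitor of cyclin-dependent kinases, averaged 7.13 ± 0.247 CPM in ATCC and 55.0 ± 4.67 CPM in DSMZ (SD, n = 3), with a log2 fold change of 2.95 (SE 0.11, adjusted p 4.74e-06). TP53INP1, FAS and MDM2 were higher in DSMZ too (2.15, 1.66 and 1.10), while BTG2, PLK2, PLK3 and TNFRSF10B were higher in ATCC (-1.81, -1.34, -0.96 and -0.74). The list thus held large differences in both directions. Of 26 proliferation genes, 13 (50%) were higher in DSMZ and 5 (19.2%) in ATCC, with a median of 0.32, beside the same shares of all genes. The DSMZ count fell to 8 without ATCC replicate 3 and to 7 without DSMZ replicate 2, and the ATCC count to 2 without DSMZ replicate 1 and to 3 without DSMZ replicate 2. Over all genes 37.1 to 39.7% were called in these 3 fits. MKI67, PCNA, CDK1 and CDC6 were higher in DSMZ, at 1.27, 1.26, 1.07 and 0.94, and CDC20, MCM4, PLK1 and CCNB1 were higher in ATCC, at -1.08, -0.61, -0.49 and -0.42. The summed level of the proliferation list was 6398 to 6736 CPM in ATCC and 7217 to 7459 CPM in DSMZ. Single genes weigh heavily in this sum: MKI67 averaged 306 CPM in ATCC and 736 in DSMZ, and CDC20 averaged 737 and 349. Any relation of the proliferation list to the 9 repair genes higher in DSMZ and the 5 higher in ATCC was not tested.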

How the data were processed

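Poly(A) RNA of 6 THP-1 cultures was sequenced. Per the submitters' processing notes, the authors used bcl2fastq 2.20, Trimmomatic 0.35 and kallisto 0.43.0 with GRCh38. Neither the annotation release nor the strand setting was stated, and both are not given in the sources used here. Per the file headers, the deposited tables hold estimated counts, not normalized, and TPM for each transcript. Transcripts were assigned to GENCODE 29 genes, 163714 (91.0%) by identifier and 14387 by gene symbol (2.43 to 2.85% of counts), and 1872 without a gene (0.177 to 0.196% of counts) were left out. Estimated counts were summed per gene and rounded.

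The comparison of banks used the quasi-likelihood F test of edgeR 4.0.16 (R 4.3.3) after filterByExpr and TMM scaling, without covariates, and p-values were adjusted by Benjamini-Hochberg over all tested genes. The biological coefficient of variation was 15.9%. Tested on simulated counts over 14388 genes, the fit recovered 13 of 65 genes given a 1.5-fold difference. It recovered 45 of 67 given 2-fold and 62 of 65 given 4-fold, and made 10 false calls. Only those genes differed in the simulation, while 49.8% of genes were called in the data. The adjusted threshold is looser where many genes differ, so these recovery counts do not carry over to the comparison of banks. No library was treated as a repeat of another, since chi-square over its degrees of freedom was at least 4.54 for replicates of a bank. GC content was known for 99.9% of the genes in the fit.

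The genes and companion lists were chosen with earlier results of these data known. All 37 genes are reported, and of each companion list up to 4 genes per direction, those with the largest change among called genes averaging at least 1 CPM. Some genes of these lists are not reported here. Alternatives were other normalizations, DESeq2 1.42.0, limma 3.58.1 on log2(TPM + 0.5), other filters, protein-coding transcripts only, an effective length offset, GC correction, a replicate block and leaving out each library. The fit without ATCC replicate 2 with GC correction was added after seeing the data.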

Additional observations from a re-analysis of the deposited data

How the results depend on the processing

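Of the 37 genes, 9 were called in the 6-library fit and all 18 other settings (BRCA2, BRIP1, FANCE, FANCF, FANCD2, FANCI, PRKDC, ERCC2 and PARP1), 11 were called in none and 17 depended on the setting. No called gene changed direction. Leaving out 1 library at a time gave 5 to 15 genes higher in DSMZ and 4 to 9 higher in ATCC. The lowest DSMZ count was without DSMZ replicate 3 and the highest counts of both directions without ATCC replicate 2. Over all genes the same fits called 5507 to 9515, which was 17.2 to 31.8% higher in DSMZ and 19.8 to 32.3% higher in ATCC. Genes higher in ATCC numbered 8 with GC correction, 8 with the replicate block and GC correction, and 9 without ATCC replicate 2 with GC correction. Genes higher in DSMZ numbered 14 and 17 in the last pair of settings. Over all genes, 32.7, 32.5 and 33.4% were higher in ATCC in those settings. In the last pair, 31.6 and 33.0% of all genes were higher in DSMZ. For the other repair genes, the counts higher in ATCC were 31, 31 and 32 in these 3 settings and 15 to 29 with a library left out. Those higher in DSMZ were 24 to 48 with a library left out. With a library left out, proliferation genes numbered 7 to 15 higher in DSMZ and 2 to 6 higher in ATCC, and p53 targets 8 to 10 and 5 to 7. The causes were not tested beyond the GC values above.

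Upper quartile scaling moved the median of all genes to -0.07 and the share of calls higher in DSMZ from 48.4 to 42.4%. Deviations from the bank means correlated at 0.01, 0.08 and 0.16 for same-numbered replicates and at -0.10 to 0.03 for differently numbered ones. These values do not settle whether replicate numbers pair the samples. With the replicate block, 9 genes were higher in DSMZ and 5 in ATCC, beside 23.8 and 24.3% of all genes. It added BRCA1 (0.94, adjusted p 0.0273) and ATR (0.82, adjusted p 0.0498) and lost RAD51C and FANCG. BARD1 lost its call without DSMZ replicate 3 and with limma on TPM, FANCC without DSMZ replicate 2 or 3, and CHEK1 without ATCC replicate 3 or any DSMZ library. Estimated counts per library were as low as 119 among these genes.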
